A study of Mus musculus with 34 samples.

Results

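Csf1, Il34, Ccl7, Ccl2 and Cx3cl1 encode cytokines and chemokines by which injured sensory neurons can signal to macrophages and microglia. They were taken by symbol from the deposited count table, where 5 of 5 were found among 48795 genes. All 5 passed the filter on low counts, as did 19565 genes in all. CSF1 and IL-34 are separate ligands of one receptor, CSF1R, on which macrophages and microglia depend for survival and division. CCL2 and CCL7 are chemokines that draw CCR2-bearing monocytes out of the blood, and CX3CL1 (fractalkine) is a membrane-bound chemokine that can be shed and binds CX3CR1 on microglia and macrophages. In the dorsal root ganglion, which holds the cell bodies of sensory neurons, CSF1 made by axotomised neurons is known to act on microglia in the spinal cord and on macrophages in the ganglion.

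RNA was sequenced from lumbar ganglia of 17 mice aged 8 to 12 weeks, 3 days after a crush of the left sciatic nerve. The ATF3 cKO mice numbered 8 (5 female, 3 male) and were Adv-Cre+ with both ATF3 alleles floxed at exon 3, so that the transcription factor ATF3, an early marker of axon damage, is removed where the Advillin promoter has driven Cre, mostly in sensory neurons. The ATF3 wt controls numbered 9. They were 4 Cre-negative females with 1 floxed allele (fl_het), 2 Cre-negative females with wild-type ATF3 and 3 Adv-Cre+ males with wild-type ATF3, so that among controls the effects of sex and Cre cannot be told apart. Each mouse gave an injured and a naive (other side) library, which makes 8 cKO injured, 8 cKO naive, 9 wt injured and 9 wt naive libraries, each from cells dissociated and enriched for neurons on 20% Percoll.

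Library totals ran between 35732193 and 77632944 counts. The 12 pan-neuronal genes summed to between 9608 and 18700 CPM (counts scaled to library size) in the 34 libraries, but 12 satellite glia markers still reached 1106 to 2907 CPM, so the RNA was not of neurons alone. In such bulk samples, fewer cells of a type and less RNA per cell cannot be told apart. Atf3 averaged 264 ± 59.6 CPM in injured cKO ganglia and 119 ± 25.6 CPM in naive cKO ganglia (SD, n = 8 each), and 364 ± 145 CPM in injured wt ganglia and 125 ± 30.8 CPM in naive wt ganglia (SD, n = 9 each). These are whole-gene counts, in which the deleted exon cannot be seen, and they do not check the deletion. Avil, which encodes Advillin, stood apart from other mice with the same Cre label in mouse cKO-131 and mouse wt-150. It averaged 86.1 CPM in cKO-131 and 508 CPM in wt-150, which is labelled Cre-negative. The other mice lay at 432.5 to 555.5 CPM with an Adv-Cre+ label and at 792.5 to 1036 CPM with a Cre-negative label. The labels were kept as given. Without both mice, none of the calls on the 5 genes given below was lost, and 1 was gained.

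Csf1 (ENSMUSG00000014599) lies on the minus strand at chr3:107741048-107760469 of GRCm38, Cx3cl1 (ENSMUSG00000031778) on the plus strand at chr8:94772009-94782427, and Il34 (ENSMUSG00000031750) on the minus strand at chr8:110741829-110805924. Ccl2 (ENSMUSG00000035385) and Ccl7 (ENSMUSG00000035373) are neighbours on the plus strand, at chr11:82035571-82037453 and chr11:82045712-82047525, with 8258 bases between them. All 5 are protein coding. Exons of the antisense genes Gm15894 and Gm15895 share 22 and 75 bases with the exons of Il34. The strand setting of the counting was not stated in the labels or processing notes, so reads from those bases could belong to either strand.

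Promoter sequences from RefSeq (GRCm38.p6) were found for 2 of the 5 genes. Both are shown, and they were not chosen by their response. Csf1 was the most strongly raised of the 5 after injury in wt mice and Cx3cl1 was not raised. Whether the sequences bear on that was not tested. Each line gives the 250 bases before the start that RefSeq annotates, read 5′ to 3′ on the gene's own strand, at chr3:107760470-107760719 (minus) for Csf1 and chr8:94771930-94772179 (plus) for Cx3cl1, with a motif match in capitals. For Csf1 this start is the end of the gene span given above. For Cx3cl1 it lies downstream of the start of the span above, which comes from GENCODE, so most of the bases shown for Cx3cl1, the capitals included, are inside that span.
Csf1: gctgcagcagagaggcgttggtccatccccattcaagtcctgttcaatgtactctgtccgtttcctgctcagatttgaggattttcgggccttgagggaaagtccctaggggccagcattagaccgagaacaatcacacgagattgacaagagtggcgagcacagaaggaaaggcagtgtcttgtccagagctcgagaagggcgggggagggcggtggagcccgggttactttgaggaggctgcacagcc
Cx3cl1: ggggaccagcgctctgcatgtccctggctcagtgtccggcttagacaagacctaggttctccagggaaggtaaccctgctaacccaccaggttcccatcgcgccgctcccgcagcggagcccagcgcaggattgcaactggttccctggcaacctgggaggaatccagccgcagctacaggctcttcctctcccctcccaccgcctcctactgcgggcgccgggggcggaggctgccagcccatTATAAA
The motifs searched, on both strands of the window that runs from these bases to 50 bases past the start, were the AP-1 site TGANTCA, the cAMP response element TGACGTCA, its part TGACG (which any TGACGTCA also holds), the NF-kB site GGGANTTCC and the TATA box TATAAA. The Csf1 window held none of these letters. The Cx3cl1 window held TATAAA at bases -6 to -1 from the RefSeq start. Among 32851 mouse promoters of the same length, 7.81% held TGANTCA, 1.79% TGACGTCA, 20.8% TGACG, 1.68% GGGANTTCC and 13.6% TATAAA.

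Injury raised Csf1, Il34 and Ccl7 in wt mice, and none of the 5 genes passed the test in cKO mice. In wt mice Csf1 moved most of the 5, to 5.48 times its naive mean. In cKO mice it was at 1.16 times its naive mean, nearer to 1 than Ccl7 at 1.27 or Cx3cl1 at 0.832. On the injured side these 3 genes were lower in cKO than in wt ganglia, while on the naive side none of the 5 passed the test between the genotypes. Ccl2 and Cx3cl1 were on average lower on the injured side than on the naive side in both genotypes, and neither passed the test. Each comparison was made with edgeR's quasi-likelihood test over all 19565 genes at an adjusted p of 0.05.

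**Figure D1:**
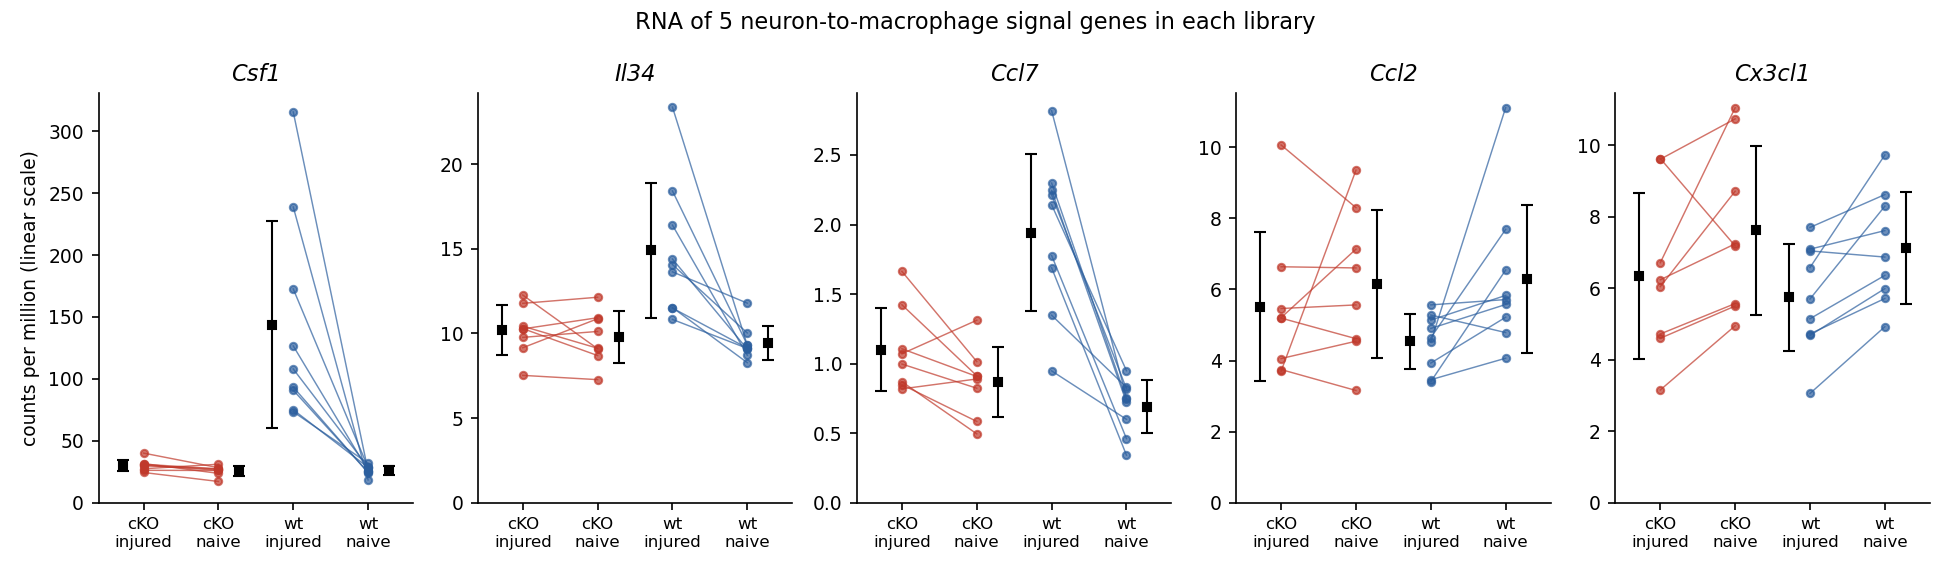
CPM (vertical axis, linear, from 0) of each gene in every library, for injured and naive ganglia of 8 cKO mice (red) and 9 wt mice (blue). Lines join both sides of a mouse, and squares with bars are the mean ± SD of a group. Injured wt ganglia lie between 73.5 and 316 CPM of Csf1, all above the other libraries, which reach at most 40.1 CPM.

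Csf1 was present at 24.4 to 40.1 CPM (median 30.2) in injured cKO ganglia and 17.2 to 31.1 CPM (median 26.8) in naive cKO ganglia. In wt mice it lay at 73.5 to 316 CPM (median 108) in injured ganglia and 18.4 to 31.9 CPM (median 26.0) in naive ganglia. Every injured wt library was thus above every naive wt library and above every injured cKO library, whereas injured and naive cKO libraries overlapped. With injury Csf1 gave on the log2 scale 0.22 (SE 0.22, adjusted p = 0.763, edgeR's quasi-likelihood test) in cKO mice and 2.46 (SE 0.21, adjusted p = 1.49e-10) in wt mice. In cKO mice 0 of the 5 genes were called, against 3.19% of all genes, with 0 at an unadjusted p under 0.05 and 0 by DESeq2. In wt mice 3 of the 5 were called, against 27.0% of all genes, and all 3 were higher. Between the injured sides, Csf1 differed by -2.25 on the log2 scale (cKO minus wt; SE 0.22, adjusted p = 7.74e-09), and 3 of the 5 genes were called, all lower in cKO, against 11.1% of all genes.

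On the naive side Csf1 averaged 25.9 ± 4.10 CPM in cKO ganglia and 26.3 ± 3.82 CPM in wt ganglia (SD, n = 8 and 9), a log2 difference of -0.01 (SE 0.21). None of the 5 genes was called there, and 0.0% of all genes were; 506 genes had an unadjusted p under 0.05, none of the 5 among them, and DESeq2 called 1. The injury effect itself differed between the genotypes for Csf1, by -2.24 on the log2 scale (cKO minus wt; SE 0.30, adjusted p = 1.94e-05, edgeR's quasi-likelihood test). For this difference 2 of the 5 genes, Csf1 and Ccl7, were called, against 2.84% of all genes.

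The size of the Csf1 change varied among wt mice. The log2 ratio of the injured to the naive side was -0.18 to 0.51 in cKO mice, above 0 in 7 of 8, and 1.20 (mouse wt-146) to 3.70 (mouse wt-172) in wt mice, above 0 in 9 of 9. The genotypes did not overlap. The mean ratio was 0.22 ± 0.24 in cKO mice and 2.28 ± 0.89 in wt mice (SD, n = 8 and 9; two-sided exact permutation test, p = 8.23e-05, the smallest that 17 mice allow). The difference was present in each sex: female cKO mice had a mean of 0.15 (n = 5) and female wt mice 2.17 (n = 6), and male cKO mice had 0.34 and male wt mice 2.51 (n = 3 each). Male wt mice were also the Adv-Cre+ controls.

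Libraries also differed in the share of counts held by 3 abundant noncoding genes (Gm23935, Gm42418 and Gm26917), between 5.02% and 20.0%. A gap in the mean share per mouse, chosen as a divide after the data were seen, set 6 mice with a low share, 3 of each genotype, apart from 11 with a high share. The mean log2 ratio of Csf1 was 0.31 in cKO and 2.62 in wt mice with a low share, and 0.17 in cKO and 2.11 in wt mice with a high share. For Ccl7 it was 0.12 in cKO and 1.68 in wt mice with a low share, and 0.47 in cKO and 1.32 in wt mice with a high share. The direction was thus alike within both sets for Csf1 and Ccl7. Il34 followed, with -0.02 in cKO and 0.63 in wt mice with a low share and 0.11 in cKO and 0.62 in wt mice with a high share.

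Il34, the other CSF1R ligand, changed less. It was measured at 7.53 to 12.3 CPM (median 10.3) in injured cKO ganglia and 7.27 to 12.1 CPM (median 9.62) in naive cKO ganglia, against 10.8 to 23.4 CPM (median 14.1) in injured wt ganglia and 8.27 to 11.8 CPM (median 9.14) in naive wt ganglia. Of the injured wt libraries, 6 of 9 were above every naive wt library, and mouse wt-176, which had the most Csf1, also had the most Il34. On the log2 scale the change with injury was 0.06 (SE 0.13, adjusted p = 0.927, edgeR's quasi-likelihood test) in cKO mice and 0.66 (SE 0.12, adjusted p = 8.01e-05) in wt mice. The injured side of cKO mice was lower than that of wt mice, at -0.55 on the log2 scale (SE 0.12, adjusted p = 0.00246).

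For the difference between the injury effects, Il34 gave -0.60 (cKO minus wt; SE 0.17, adjusted p = 0.0515, edgeR's quasi-likelihood test), just outside the threshold. With the mouse as a block in the fit the value was -0.57 (SE 0.14, adjusted p = 0.0198), inside it, as it was without mice cKO-131 and wt-150 (-0.66, adjusted p = 0.0329). The log2 ratio per mouse was above 0 in 4 of 8 cKO mice and 9 of 9 wt mice, with means of 0.06 ± 0.22 in cKO and 0.63 ± 0.38 in wt mice (SD; two-sided exact permutation test, p = 0.00107).

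Ccl7 was the scarcest of the 5, with 18 counts in the lowest library. It lay at 0.819 to 1.66 CPM (median 1.03) in injured cKO ganglia and 0.495 to 1.31 CPM (median 0.899) in naive cKO ganglia. In wt mice it lay at 0.948 to 2.82 CPM (median 2.14) in injured ganglia and 0.342 to 0.949 CPM (median 0.743) in naive ganglia. All but mouse wt-141 of the 9 injured wt libraries were above every naive wt library, but injured cKO and injured wt libraries overlapped. With injury the change on the log2 scale was 0.33 (SE 0.21, adjusted p = 0.551, edgeR's quasi-likelihood test) in cKO mice and 1.49 (SE 0.20, adjusted p = 1.07e-06) in wt mice.

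Between the injured sides, Ccl7 was lower in cKO mice, at -0.83 on the log2 scale (SE 0.20, adjusted p = 0.00554, edgeR's quasi-likelihood test). The difference between the injury effects was -1.16 (cKO minus wt; SE 0.29, adjusted p = 0.0219), and this call was lost without mouse cKO-152 (adjusted p = 0.0678), mouse cKO-156 (adjusted p = 0.0506) or mouse wt-172 (adjusted p = 0.0515). The log2 ratio was above 0 in 6 of 8 cKO mice, with a mean of 0.34 ± 0.38, and in 9 of 9 wt mice, with a mean of 1.44 ± 0.54 (SD; two-sided exact permutation test, p = 0.000658).

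Ccl2, which shares the receptor CCR2 and the locus with Ccl7, did not follow it. Ccl2 was measured at 3.70 to 10.1 CPM (median 5.20) in injured cKO ganglia and 3.16 to 9.35 CPM (median 6.08) in naive cKO ganglia, against 3.41 to 5.56 CPM (median 4.64) in injured wt ganglia and 4.06 to 11.1 CPM (median 5.71) in naive wt ganglia. All 4 groups overlapped. On the log2 scale the change with injury was -0.16 (SE 0.21, adjusted p = 0.854, edgeR's quasi-likelihood test) in cKO mice and -0.47 (SE 0.20, adjusted p = 0.0792) in wt mice. Ccl2 was lower on the injured side in 4 of 8 cKO mice and in 8 of 9 wt mice. With the mouse as a block, the change in wt mice was -0.43 (SE 0.16, adjusted p = 0.0327) and passed.

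The difference between the injury effects on Ccl2 was 0.31 (cKO minus wt; SE 0.29, adjusted p = 0.815, edgeR's quasi-likelihood test), and the ratios per mouse, -0.16 ± 0.53 in cKO mice and -0.43 ± 0.46 in wt mice (SD, n = 8 and 9), gave p = 0.28 in the two-sided exact permutation test. Leaving out mouse cKO-156, whose ratio of -1.33 was the lowest, turned the change in cKO mice to 0.01. The ratios of Ccl2 and Ccl7 had a Pearson r of 0.745 (exact permutation p = 0.0254, adjusted over 12 relations 0.305) and a Spearman rho of 0.786 (p = 0.0279, adjusted 0.335) over 8 cKO mice, and an r of 0.395 without the 2 mice farthest from the median. Over 9 wt mice, r was -0.01 (exact permutation p = 0.983, adjusted 0.983) and rho -0.15 (p = 0.708, adjusted 0.912), with an r of -0.16 without 2 mice. No relation between these chemokines passed in either genotype.

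Cx3cl1 lay at 3.16 to 9.63 CPM (median 6.14) in injured cKO ganglia and 4.95 to 11.1 CPM (median 7.22) in naive cKO ganglia, against 3.06 to 7.70 CPM (median 5.70) in injured wt ganglia and 4.93 to 9.73 CPM (median 6.87) in naive wt ganglia. All 4 groups overlapped, but within mice the injured side was the lower in 7 of 8 cKO mice and 8 of 9 wt mice. On the log2 scale injury gave -0.27 (SE 0.20, adjusted p = 0.639, edgeR's quasi-likelihood test) in cKO mice and -0.31 (SE 0.19, adjusted p = 0.24) in wt mice. With the mouse as a block the change in wt mice passed, at -0.33 (SE 0.10, adjusted p = 0.0101), while that in cKO mice, -0.29 (SE 0.10, adjusted p = 0.0819), did not. The difference between the injury effects was 0.04 (SE 0.27, adjusted p = 0.995), and the mean ratios per mouse were -0.29 ± 0.36 in cKO mice and -0.33 ± 0.23 in wt mice (SD, n = 8 and 9; two-sided exact permutation test, p = 0.813).

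**Figure D2:**
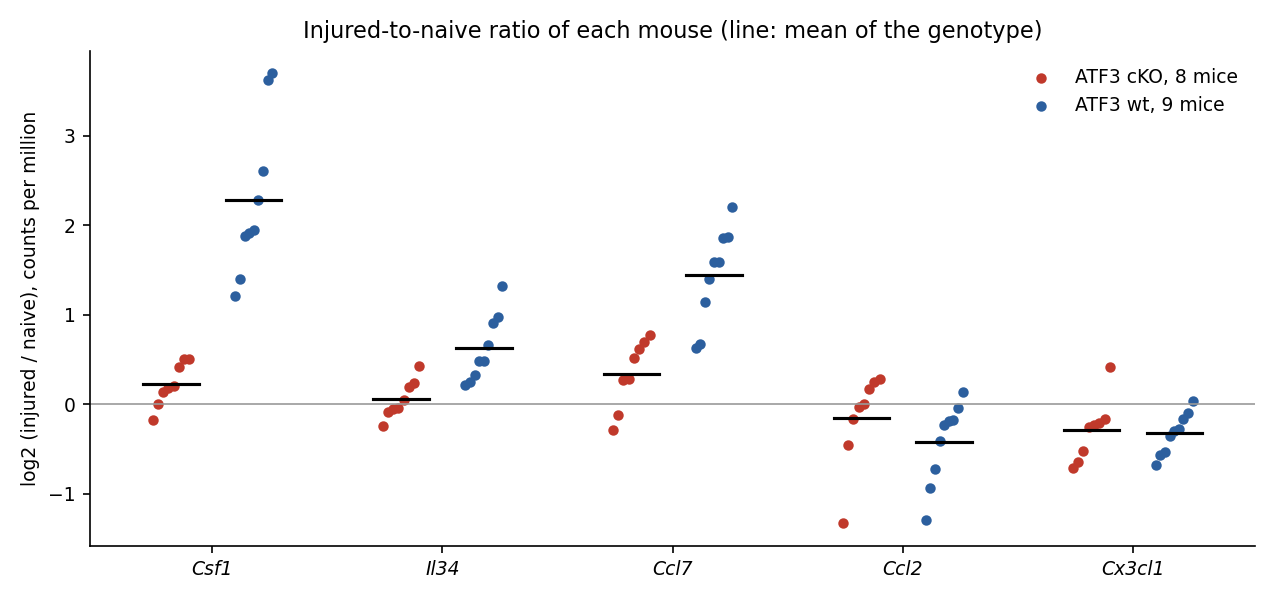
Log2 ratio of the injured to the naive side (vertical axis) for each gene in 8 cKO mice (red, left) and 9 wt mice (blue, right), 1 point per mouse, with a line at the mean. The genotypes are separate for Csf1 (at most 0.51 in cKO mice and at least 1.20 in wt mice) and overlap for the other genes.

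**Figure D3:**
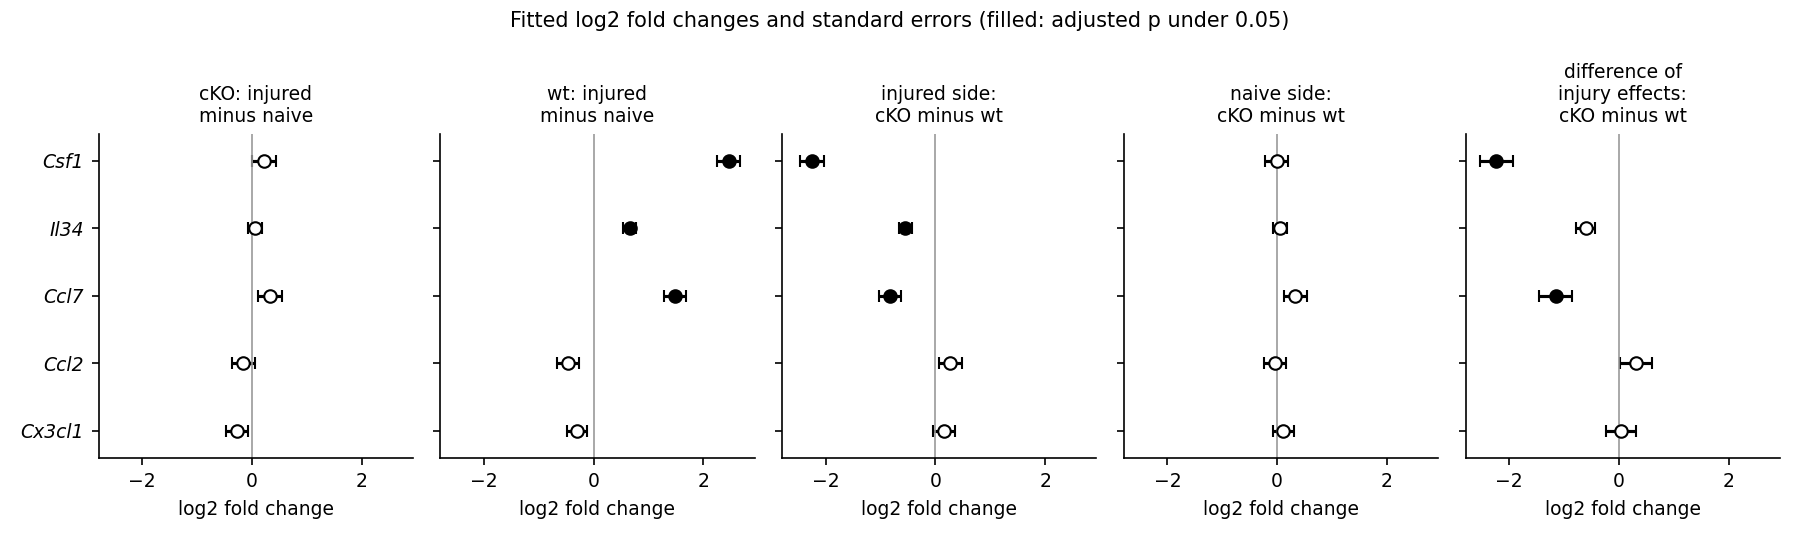
Log2 fold changes (horizontal axis) with standard errors from edgeR for each gene in 5 comparisons, with filled points where the adjusted p was under 0.05. Csf1, Il34 and Ccl7 are filled and to the right for injury in wt mice and filled and to the left on the injured side, while every point is open for injury in cKO mice and on the naive side.

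Levels of different genes were compared as CPM per kilobase of exon. In injured wt ganglia Csf1 came first with 27.2 ± 15.8, above 91.7% of 19492 genes, followed by Il34 with 7.61 ± 2.04, Ccl2 with 3.99 ± 0.69, Ccl7 with 2.43 ± 0.70 and Cx3cl1 with 1.46 ± 0.38 CPM per kilobase (SD, n = 9). There the SDs of neighbours in the order overlapped only for Ccl7 and Cx3cl1. In injured cKO ganglia Csf1, at 5.71 ± 0.90, Il34, at 5.20 ± 0.75, and Ccl2, at 4.84 ± 1.84 CPM per kilobase (SD, n = 8), lay within their spread, as did Cx3cl1, at 1.61 ± 0.59, and Ccl7, at 1.37 ± 0.37. The naive sides had Ccl2 first, with 5.41 ± 1.83 in cKO and 5.52 ± 1.83 CPM per kilobase in wt mice, and its SD overlapped those of Il34 and Csf1 in both genotypes. Csf1 was thus near the other CSF1R ligand, Il34, in 3 of the 4 groups and above it in injured wt ganglia.

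Other chemokine genes lie beside Ccl2 and Ccl7 on chromosome 11. Ccl8, which encodes a monocyte chemoattractant, rose in wt mice, with 3.92 on the log2 scale (SE 0.42, adjusted p = 1.06e-08, edgeR's quasi-likelihood test), and gave 0.97 (SE 0.42, adjusted p = 0.283) in cKO mice, although its counts over all libraries came to only 309. Ccl11, an eosinophil chemoattractant, gave 0.22 (SE 0.52, adjusted p = 0.933) in cKO and 0.14 (SE 0.49, adjusted p = 0.886) in wt mice. Ccl1 gave -0.44 (SE 0.36, adjusted p = 0.691) in cKO and -0.21 (SE 0.34, adjusted p = 0.715) in wt mice. Ccl12 had 261 counts in all and was not tested. Neighbouring genes of this cluster therefore did not all pass or all miss the test.

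Receptors of the 5 ligands were tested in 9 of 10 cases. In cKO mice 1 of 9 rose with injury, where 3.19% of all genes were called, with a median log2 fold change of 0.32. In wt mice 6 of 9 rose, where 27.0% of all genes were called, with a median of 1.35. The medians of all genes were 0.02 in both. Csf1r averaged 6.06 ± 3.73 CPM in injured and 4.60 ± 2.11 CPM in naive cKO ganglia (adjusted p = 0.628, edgeR's quasi-likelihood test), and 11.0 ± 2.80 CPM in injured and 3.39 ± 1.74 CPM in naive wt ganglia (SD, n = 8 and 9; log2 fold change 1.71, SE 0.31, adjusted p = 9.15e-05). Cx3cr1, the receptor of CX3CL1, rose in wt mice by 2.47 (SE 0.31, adjusted p = 2.22e-07), against 0.57 (SE 0.31, adjusted p = 0.45) in cKO mice. Csf1r was higher on the injured side in 4 of 8 cKO mice and 9 of 9 wt mice, and Cx3cr1 in 6 of 8 cKO mice and 9 of 9 wt mice.

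Ccr2 averaged 2.71 ± 1.57 CPM in injured and 2.23 ± 1.30 CPM in naive cKO ganglia, and 2.28 ± 1.10 CPM in injured and 1.04 ± 0.59 CPM in naive wt ganglia (SD, n = 8 and 9). Its rise in wt mice was 1.14 (SE 0.36, adjusted p = 0.016, edgeR's quasi-likelihood test) and the call was lost without mouse wt-146 (adjusted p = 0.0651). The proteoglycan syndecan-1 (Sdc1), which binds IL-34, was the receptor gene that rose in both genotypes: by 0.78 (SE 0.20, adjusted p = 0.0221) in cKO mice, a call lost without any of 6 cKO mice (cKO-194, cKO-163, cKO-156, cKO-152, cKO-131 or cKO-130; highest adjusted p 0.0955) and without mice cKO-131 and wt-150 together (adjusted p = 0.0571), and by 2.01 (SE 0.20, adjusted p = 2.01e-09) in wt mice. On the injured side 2 of 9 receptor genes were lower in cKO than in wt ganglia, where 11.1% of all genes were called, with a median of -0.16. These were Sdc1 (-1.27, SE 0.20, adjusted p = 2.94e-05) and Cx3cr1 (-1.35, SE 0.30, adjusted p = 0.00226), and for both the injury effects also differed between the genotypes. For that difference 2.84% of all genes were called. When the mouse was a block, 4 of 9 receptor genes were lower for it, and 1474 of all 19565 genes were called.

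Of 10 genes of CSF1 receptor signalling in myeloid cells, Csf1r itself included, 0 rose in cKO mice, where 3.19% of all genes were called. The median in cKO mice was 0.44, with 10 of 10 above 0, 0 at an unadjusted p under 0.05 and 0 by DESeq2. In wt mice 6 rose (median 1.19), where 27.0% of all genes were called. They were led by Trem2, a lipid-sensing receptor that signals through TYROBP, with 0.72 (SE 0.44, adjusted p = 0.525, edgeR's quasi-likelihood test) in cKO and 2.45 (SE 0.42, adjusted p = 3.66e-05) in wt mice. Fcgr1, an Fc receptor, gave 0.43 (adjusted p = 0.742) in cKO and 2.00 (adjusted p = 0.00018) in wt mice. Leaving out 1 mouse at a time gave 4 to 8 of these genes as called in wt mice, with 4 without mouse wt-146 or wt-195. On the injured side 2 of 10 were lower in cKO than in wt ganglia, where 11.1% of all genes were called. The list median there was 0.32 (cKO minus wt), however, and 6 of 10 were above 0. Trem2 was among those called (-1.32, SE 0.40, adjusted p = 0.0272), a call lost without any of mice cKO-193, cKO-192, cKO-163, cKO-156, cKO-152 and cKO-130 and mouse wt-195 (highest adjusted p 0.0678). On the naive side the median was 0.54 (cKO minus wt), with 10 of 10 above 0. None was called there, with 5 at an unadjusted p under 0.05 and 0 by DESeq2. For the difference between the injury effects, 0 of 10 were called, against 2.84% of all genes, with 4 at an unadjusted p under 0.05 and 0 by DESeq2. With the mouse as a block 1 of 10 was called, and 1474 of all 19565 genes.

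Proteases known to shed or process these ligands or to act beside them were tested in 9 of 9 cases. In cKO mice 0 rose, where 3.19% of all genes were called (median 0.23, 0 at an unadjusted p under 0.05 and 0 by DESeq2). In wt mice 4 rose (median 0.45), where 27.0% of all genes were called. Ctss, cathepsin S, which releases CX3CL1 in the spinal cord, gave 0.52 (SE 0.32, adjusted p = 0.524, edgeR's quasi-likelihood test) in cKO and 1.75 (SE 0.31, adjusted p = 5.38e-05) in wt mice. Adam10, which sheds CX3CL1 from the cell surface, gave 0.04 (SE 0.11, adjusted p = 0.955) in cKO and 0.43 (SE 0.11, adjusted p = 0.00285) in wt mice. On the injured side 3 of 9 were lower in cKO than in wt ganglia, where 11.1% of all genes were called. These were Adam10 (-0.38, SE 0.11, adjusted p = 0.0209), a call lost without any of mice cKO-130 and cKO-193 and mice wt-172 and wt-176 (highest adjusted p 0.0886), and the plasminogen activator genes, at -0.63 (SE 0.17, adjusted p = 0.0101) for Plat and -0.63 (SE 0.10, adjusted p = 3.63e-05) for Plau. Plau averaged 7.69 ± 1.33 CPM in injured and 8.25 ± 0.69 CPM in naive cKO ganglia, against 11.9 ± 2.03 CPM in injured and 8.43 ± 1.13 CPM in naive wt ganglia (SD, n = 8 and 9), and its injury effects differed by -0.60 (SE 0.14, adjusted p = 0.0125). Plau was the 1 protease gene of 9 called for that difference, where 2.84% of all genes were called. With the mouse as a block 4 of 9 were called, and 1474 of all 19565 genes.

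Among 34 other chemokine ligand genes, 20 passed the filter. In cKO mice 0 of 20 were called, against 3.19% of all genes (median 0.26, 1 at an unadjusted p under 0.05 and 0 by DESeq2). In wt mice 6 of 20 rose (median 0.45), a share near the 27.0% of all genes called. Besides Ccl8, Cxcl16, a membrane-bound chemokine, was called with every mouse left out in turn: it gave 0.26 (SE 0.19, adjusted p = 0.633, edgeR's quasi-likelihood test) in cKO and 1.12 (SE 0.18, adjusted p = 2.11e-05) in wt mice. The count of 6 was less firm: it was 2 without mouse wt-150 or wt-175, 3 without mouse wt-139, wt-146 or wt-195, and at most 7 with any other mouse left out. Ccl8, at -1.95 (SE 0.36, adjusted p = 0.000248), and Cxcl16, at -0.70 (SE 0.19, adjusted p = 0.0112), were lower in injured cKO than in injured wt ganglia, and 2 of 20 is a share near the 11.1% of all genes called there. Of these, Ccl8 was called for the difference between the injury effects (-2.96, SE 0.62, adjusted p = 0.00467), at mean levels of 0.10 CPM in injured and 0.06 CPM in naive cKO ganglia and 0.40 CPM in injured and 0.02 CPM in naive wt ganglia. With the mouse as a block, 2 of 20 were called lower for that difference, and 1 of 20 was lower with injury in cKO mice. Of all 19565 genes, that fit called 1474 for the difference and 1643 for injury in cKO mice.

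**Figure D4:**
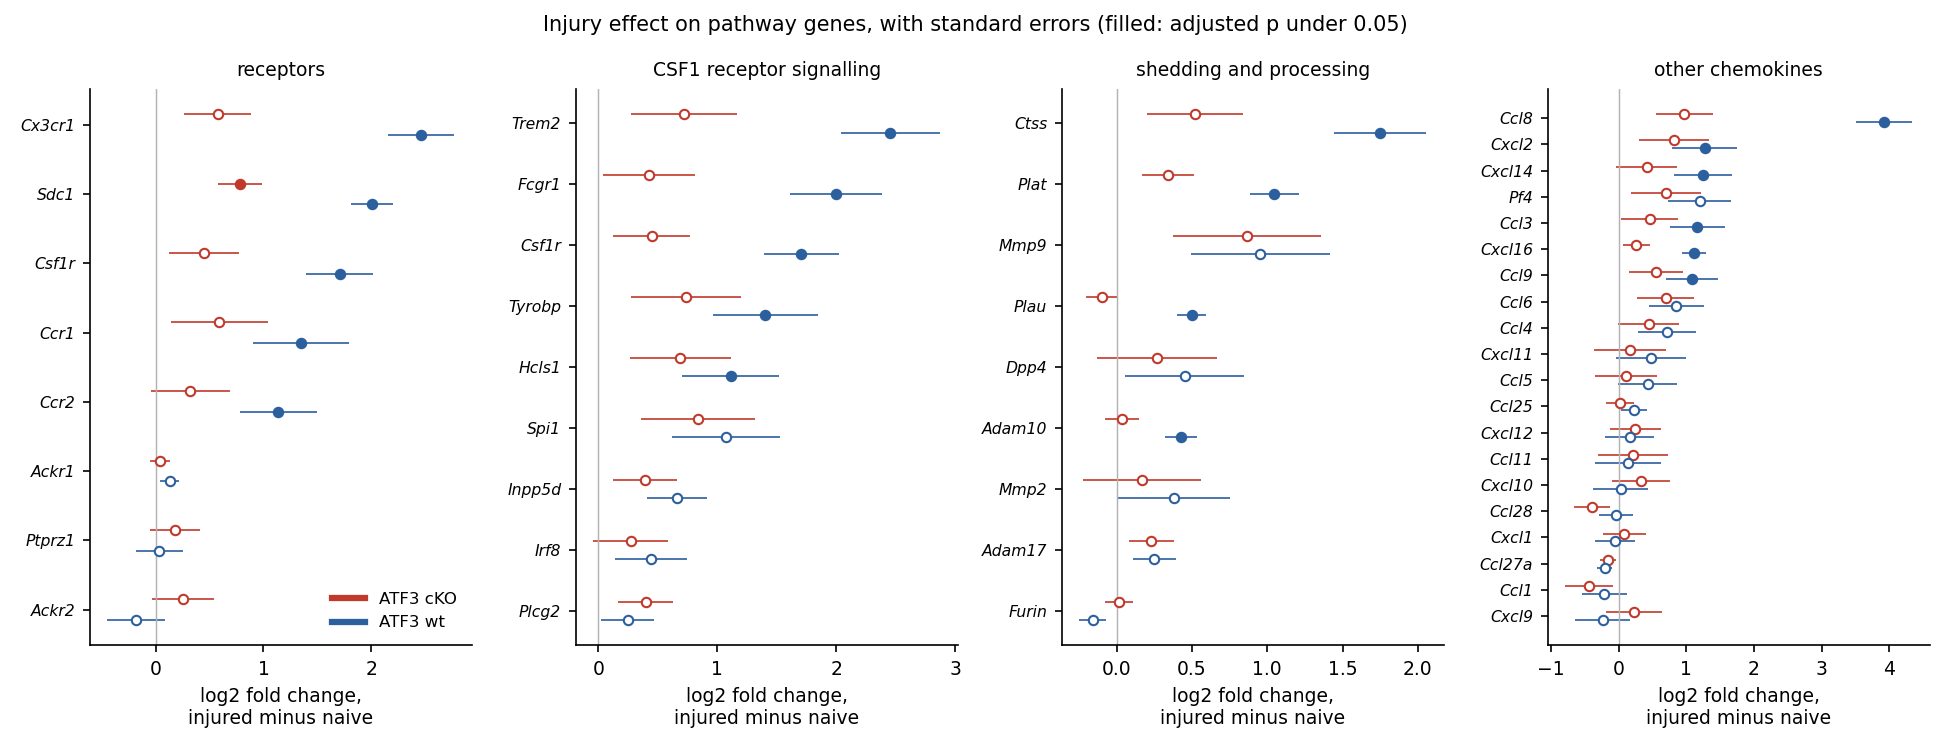
Log2 fold changes with injury (horizontal axes, standard errors as bars) of receptor, CSF1 receptor signalling, protease and other chemokine genes in cKO mice (red, upper point of a pair) and wt mice (blue, lower point), with filled points where edgeR's adjusted p was under 0.05. In cKO mice the filled point is Sdc1, at 0.78, and in wt mice 5, 5, 4 and 6 of the genes drawn are filled.

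Cytokine genes outside these families were tested in 27 of 30 cases. In cKO mice 2 rose, Lgals3 and Spp1, with a list median of 0.27, and in wt mice 10 rose and 1 fell, with a median of 0.33. The shares called over all genes were 3.19% in cKO and 27.0% in wt mice. Spp1, which encodes the secreted phosphoprotein osteopontin, averaged 81.2 ± 29.8 CPM in injured and 32.4 ± 12.8 CPM in naive cKO ganglia, and 75.5 ± 21.3 CPM in injured and 32.9 ± 11.5 CPM in naive wt ganglia (SD, n = 8 and 9). Its rise was 1.37 (SE 0.25, adjusted p = 0.00064, edgeR's quasi-likelihood test) in cKO and 1.20 (SE 0.24, adjusted p = 0.00023) in wt mice, and the difference between them was 0.17 (SE 0.34, adjusted p = 0.962). Lgals3, galectin-3, rose by 1.16 (SE 0.18, adjusted p = 4.02e-05) in cKO and 1.53 (SE 0.17, adjusted p = 1.91e-08) in wt mice, differing by -0.37 (SE 0.24, adjusted p = 0.596). Both secreted factors thus passed the test for injury in cKO mice, in which Csf1 did not.

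Clcf1, a cytokine of the interleukin-6 family, gave 0.27 (SE 0.29, adjusted p = 0.802, edgeR's quasi-likelihood test) in cKO and 1.40 (SE 0.28, adjusted p = 0.000208) in wt mice. Il6 gave 0.76 (SE 0.32, adjusted p = 0.264) in cKO and 1.28 (SE 0.31, adjusted p = 0.00191) in wt mice, and was higher on the injured side in 8 of 8 cKO and 9 of 9 wt mice. Vegfa, the vascular growth factor, gave 0.05 (SE 0.11, adjusted p = 0.935) in cKO mice and fell by 0.37 (SE 0.10, adjusted p = 0.00685) in wt mice. It was the 1 gene of 27 that differed on the injured side, 0.40 higher in cKO (SE 0.11, adjusted p = 0.0103), where 11.1% of all genes were called. For the difference between the injury effects 0 of 27 were called, against 2.84% of all genes, with 2 at an unadjusted p under 0.05 and 0 by DESeq2. With the mouse as a block 1 was higher and 1 lower, and 1474 of all 19565 genes were called. With 1 mouse left out, 5 to 11 of these genes rose in wt mice, with 5 without mouse wt-172 and 6 without mouse wt-175.

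Signals that restrain or direct engulfment by macrophages were tested in 8 of 9 cases. In cKO mice 0 were called, against 3.19% of all genes (median 0.03, 3 at an unadjusted p under 0.05 and 1 by DESeq2). In wt mice 2 rose (median 0.15), a share no higher than the 27.0% of all genes called. Blocking on the mouse gave other counts: 2 rose and 1 fell in cKO mice, and 4 rose and 1 fell in wt mice. Of all 19565 genes, that fit called 1643 in cKO and 8003 in wt mice. Cd200, a neuronal ligand that holds myeloid cells in check, gave 0.21 (SE 0.08, adjusted p = 0.212, edgeR's quasi-likelihood test) in cKO and 0.44 (SE 0.08, adjusted p = 5.7e-05) in wt mice. Pros1, a bridging ligand for engulfment, gave 0.54 (SE 0.17, adjusted p = 0.0881) in cKO and 0.91 (SE 0.16, adjusted p = 6.6e-05) in wt mice. On the injured side 1 of 8 was lower in cKO than in wt ganglia, a share near the 11.1% of all genes called there. It was the chaperone gene Calr (-0.14, SE 0.04, adjusted p = 0.0386), a call lost in 9 of the 17 fits that left out 1 mouse (highest adjusted p 0.135). Neither Cd200 nor Pros1 differed between the genotypes beyond the threshold, with adjusted p = 0.377 for Cd200 and 0.578 for Pros1 for the difference between the injury effects.

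Macrophage markers rose in wt mice as well. Of 19 such genes, which include Csf1r, Cx3cr1, Ctss, Trem2 and Tyrobp from the lists above, 15 rose in wt mice (median 1.38). There 27.0% of all genes were called, and 12 to 18 of the 19 when 1 mouse was left out. In cKO mice 0 of the 19 rose, where 3.19% of all genes were called. The median of the 19 in cKO mice was 0.52, with 1 at an unadjusted p under 0.05, 0 by DESeq2 and 1 with the mouse as a block. Their summed level was 44.3 to 267 CPM in injured and 34.1 to 135 CPM in naive cKO ganglia, and 49.6 to 183 CPM in injured and 9.92 to 86.8 CPM in naive wt ganglia, so all groups overlapped. The mean sums of the injured sides were close, at 104.9 ± 73.1 CPM in cKO and 105.9 ± 41.4 CPM in wt ganglia (SD, n = 8 and 9). The naive sides averaged 76.1 ± 37.1 CPM in cKO and 42.05 ± 20.2 CPM in wt ganglia. No marker was at 0 in a group. C1qa, a complement gene of resident macrophages, averaged 1.64 ± 1.11 CPM in injured and 1.32 ± 0.75 CPM in naive cKO ganglia, and 4.32 ± 1.41 CPM in injured and 1.08 ± 0.62 CPM in naive wt ganglia (SD, n = 8 and 9). Ptprc and Itgam went the other way between the injured sides, with overlapping SDs. Ptprc averaged 9.63 ± 6.22 CPM in injured cKO and 6.22 ± 3.36 CPM in injured wt ganglia. Itgam averaged 3.23 ± 2.99 CPM in injured cKO and 2.13 ± 1.6 CPM in injured wt ganglia.

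Injured cKO ganglia were lower than injured wt ganglia for 7 of the 19 markers, where 11.1% of all genes were called, with 5 to 9 when 1 mouse was left out. The median there was -0.58 (cKO minus wt), but 6 of the 19 were above 0, with 0 called higher. For the difference between the injury effects 3 were called, Cx3cr1, Fcrls and C1qb, and leaving out 1 mouse gave 1 to 5, with 1 without any of mice cKO-163, cKO-192 and cKO-193 and mice wt-139, wt-150, wt-172 and wt-175, and 5 without mouse cKO-131. With the mouse as a block, where 1474 genes in all were called instead of 556, 8 of the 19 were lower for that difference. The log2 ratio of the summed markers was above 0 in 6 of 8 cKO mice, with a mean of 0.38 ± 1.07 that includes a ratio of 2.66 in mouse cKO-194, and in 8 of 9 wt mice, with a mean of 1.40 ± 0.82 (SD). Neutrophil markers had medians of 0.78 in cKO and 0.92 in wt mice with injury. In cKO mice 0 of 10 were called, against 3.19% of all genes (1 at an unadjusted p under 0.05 and 0 by DESeq2). In wt mice 1 of 10 was called, against 27.0% of all genes, and 5 without mouse wt-141. On the injured side the neutrophil median was 1.02 (cKO minus wt), with 9 of 10 above 0. There 0 of 10 were called, against 11.1% of all genes, with 4 at an unadjusted p under 0.05 and 1 higher by DESeq2. Without mouse wt-146, 4 were called higher in cKO. On the naive side the median was 0.49 (cKO minus wt) for macrophage and 1.22 for neutrophil markers, with edgeR calling 0 of each list (6 and 8 at an unadjusted p under 0.05, and 0 by DESeq2). The part of macrophages or neutrophils in the levels of the 5 ligands was not tested.

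Within a genotype, no correlation of the ratio of Csf1 with that of the macrophage markers passed. Over 8 cKO mice Pearson's r was 0.365 (exact permutation p = 0.379) and Spearman's rho 0.238 (p = 0.582), and over 9 wt mice r was 0.203 (exact permutation p = 0.61) and rho 0.083 (p = 0.843). Without the 2 mice farthest from the median of the markers, r was -0.20 in cKO and -0.36 in wt mice. For Ccl7, r was 0.519 (exact permutation p = 0.18) and rho 0.452 (p = 0.267) in cKO mice, and r was 0.501 (exact permutation p = 0.168) and rho 0.383 (p = 0.312) in wt mice, with 0.386 in cKO and 0.365 in wt mice without the 2 mice. For Il34, r was 0.646 (exact permutation p = 0.0812) and rho 0.595 (p = 0.132) in cKO mice, and r was 0.216 (exact permutation p = 0.577) and rho 0.133 (p = 0.744) in wt mice, with 0.406 in cKO and -0.48 in wt mice without the 2 mice. The relation of Il34 in wt mice thus turned with 2 mice left out. Of 12 relations tested, the 10 with macrophage markers and the 2 of Ccl2 with Ccl7, none passed after Benjamini-Hochberg adjustment, the lowest adjusted p being 0.305.

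**Figure D5:**
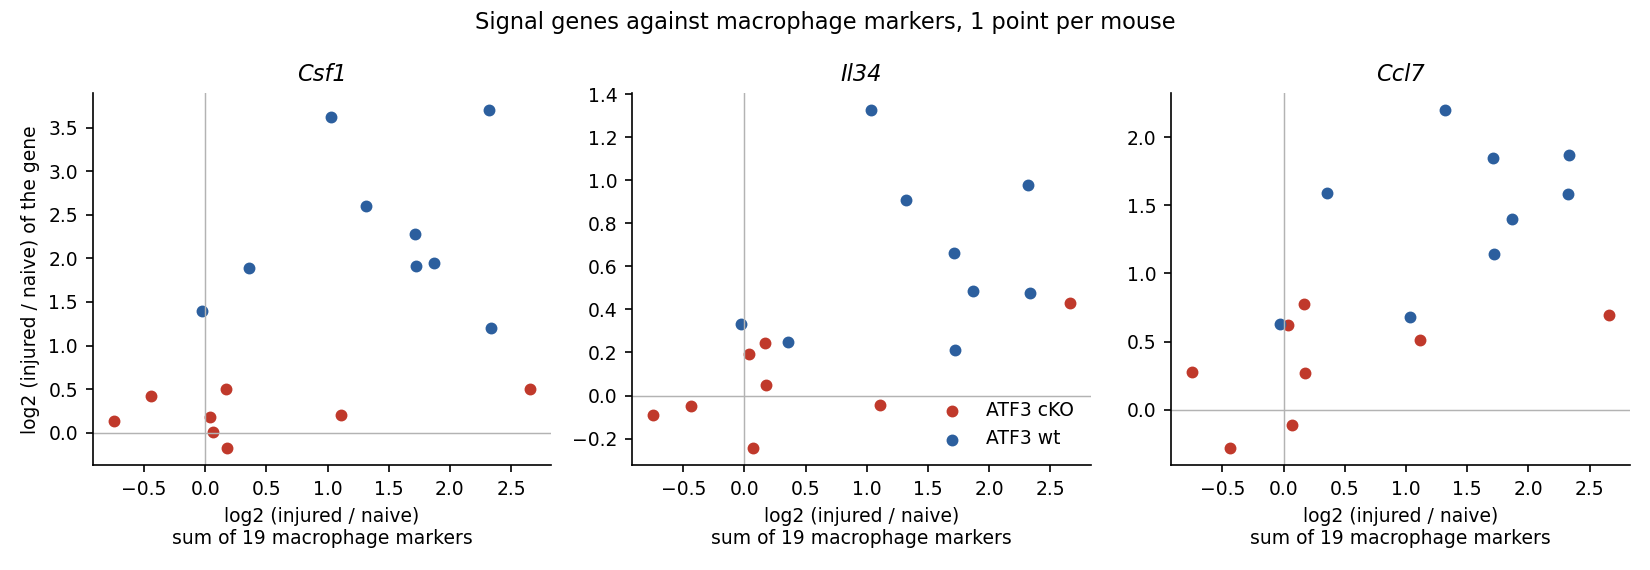
Log2 ratio of the injured to the naive side of Csf1, Il34 and Ccl7 (vertical axes) against that of the sum of 19 macrophage markers (horizontal axes), 1 point per mouse, cKO in red and wt in blue. The cKO mouse with the highest marker ratio, 2.66, has a Csf1 ratio of 0.50, below every wt mouse.

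The genes whose levels were most like those of each ligand were sought among 13184 genes, by Pearson correlation of log2 CPM over the 34 libraries, which share genotype, side and mouse. For Csf1 they were Tmem88b (r = 0.986), Camk1 (0.986), Epb41l4a (0.982), Odc1 (0.974) and Gal (0.971). Atf3 itself stood at rank 626 (0.792), by whole-gene counts in which the deletion in cKO mice cannot be seen. Over the 17 ratios per mouse the genes closest to Csf1 were Camk1 (0.993), Epb41l4a (0.991), Mapkbp1 (0.983), Tmem43 (0.982) and Tubb6 (0.981). Camk1 and Epb41l4a were thus among the 5 closest to Csf1 by both measures.

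Il34 was closest to Csdc2 (0.924), Fndc4 (0.918), Slc29a2 (0.914), Slc39a14 (0.906) and Rab11fip5 (0.904) over the 34 libraries. Ccl7 was closest to S100a11 (0.851), Tnfaip6 (0.836), Rps25 (0.834), Dazap2 (0.832) and Nme2 (0.824). Ccl2 was closest to Gem (0.819), Gadd45b (0.709), Tnfsf9 (0.694), Hes1 (0.673) and Bhlhe40 (0.665), and Cx3cl1 to Swap70 (0.927), Ehd2 (0.884), Id3 (0.88), Fkbp9 (0.871) and Fcgrt (0.871). No gene was among the 5 closest of more than 1 of the 5 ligands over the libraries. Hes1 was among the 5 closest of Ccl2, and Fcgrt of Cx3cl1, over the ratios per mouse as well (0.775 and 0.772).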

How the data were processed

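The deposited table holds raw counts, made by the authors, of 48795 Ensembl genes in 34 libraries. Libraries were stranded total RNA, read as paired ends, per the labels' protocols. The submitters' processing notes list bcl2fastq 2.20, STAR, HTSeq and GRCm38. Further versions, the annotation release and HTSeq's strand option were not stated there. Groups came from the labels, with the mouse number as replicate.

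Counts were scaled by TMM and tested with edgeR 4.0.16 in R 4.3.3 (filterByExpr, robust quasi-likelihood fit, sex as a covariate, all groups in one fit), with Benjamini-Hochberg adjustment over 19565 genes. Log2 ratios per mouse used a prior count of 2. The fit was also run on simulated counts. Those libraries were drawn independently of each other, so that run cannot show how the test behaves with paired libraries. No 2 libraries were alike: even the most similar pair of a group had a chi-square of 9.35 per degree of freedom. Both sides came from one mouse, so mouse numbers pair libraries. Over 17 pairs the median correlation of deviations was 0.501 (0.00976 to 0.761, over 0.1 in 16). Alternatives were other scaling, no filter, no sex term, DESeq2 1.42.0, the share of 3 noncoding genes, each sex, Adv-Cre+ controls, mice set apart by Avil, each mouse left out, and the mouse as a block.

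The ligands and gene lists were chosen with earlier results of these data known. Besides the 5 ligands and Atf3, the text names up to 5 genes of a list and comparison with the smallest adjusted p, up to 4 cell type markers, and the 5 genes most correlated with each ligand among genes with a mean of at least 1 CPM. Genes beside Ccl2 and Ccl7, the 3 macrophage markers called for the difference, Ptprc and Itgam were named after their values were seen. Some genes of the lists are counted but not named or drawn, and are not reported here. The main edgeR fit had no term for the mouse and took both libraries of a mouse as independent. Its p-values therefore measure the spread between libraries. P-values of the permutation tests on ratios per mouse measure the spread between mice.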

Additional observations from a re-analysis of the deposited data

Results flagged for a closer look

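Several values stood apart from the rest of their group by a gap larger than Dixon's critical value at 95%, among 34 groups of values checked, where chance alone gives about 1 in 20. Injured mouse cKO-194 had 40.1 CPM of Csf1 and 10.1 CPM of Ccl2, both the highest of the 8 injured cKO libraries, and the same mouse had the highest ratio of summed macrophage markers. Naive mouse wt-150, set apart by its Avil level, had 11.8 CPM of Il34, the highest of the 9 naive wt libraries. The Ccl2 ratio of mouse cKO-156 was -1.33 on the log2 scale, the lowest of the 8 cKO mice. Naive mouse wt-141 had a macrophage marker sum of 86.8 CPM, the highest of the 9 naive wt libraries.

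Injury effects differed between the genotypes by edgeR's quasi-likelihood test for Csf1, by -2.24 (cKO minus wt; adjusted p = 1.94e-05), and for Ccl7, by -1.16 (adjusted p = 0.0219).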

How the results depend on the processing

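Injury in wt mice raised Csf1, Il34 and Ccl7, and all 3 were lower in injured cKO than in injured wt ganglia, with the direction kept in every alternative run. With each mouse left out in turn (17 fits), these calls held, as did the Csf1 difference between injury effects (-2.357 to -2.001). Ranges over those fits were -0.664 to -0.497 for the Il34 difference (past the threshold in 6), -1.244 to -1.012 for the Ccl7 difference (lost in 3), -0.279 to 0.011 for Ccl2 in cKO and -0.542 to -0.319 in wt mice, -0.018 to 0.244 for Cx3cl1 on the injured side and -0.074 to 0.119 for its difference. On the naive side they were -0.048 to 0.049 for Csf1, -0.002 to 0.11 for Il34, -0.137 to 0.114 for Ccl2 and -0.026 to 0.186 for Cx3cl1. Genes called were 345 to 926 for injury in cKO mice and 339 to 717 for the difference. In other alternatives, adjusted p (edgeR's quasi-likelihood test) follows a value.

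In the fit with a replicate block for the mouse, genes called were 1643 for injury in cKO mice, 8003 in wt mice and 1474 for the difference. Ccl2 (-0.433) and Cx3cl1 (-0.325) then passed in wt mice and Il34 (-0.567) for the difference, and the block changed no other call on the 5 genes. Il34 also passed for the difference with the share of 3 noncoding genes as a covariate (-0.6, 0.0403; 957 genes called), without mice cKO-131 and wt-150 (-0.66, 0.0329) and with DESeq2 (-0.59, 0.0268), which also called Ccl2 in wt mice (-0.486, 0.0488) and 1 gene on the naive side.

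In females only, genes called were 126 for cKO injury, 2923 for wt injury, 718 on the injured side, 2 on the naive side and 67 for the difference, and Ccl7 missed the threshold on the injured side (-0.719, 0.185) and for the difference (-1.185, 0.297). In males only they were 99, 814 and 102, with 0 for the difference. Below the threshold were Il34 in wt mice (0.569, 0.101) and on the injured side (-0.419, 0.391), Ccl7 on the injured side (-0.993, 0.213), and the differences of Csf1 (-2.282, 0.442) and Ccl7 (-1.068, 1.0). On the naive side Csf1 was 0.098 and Ccl2 0.176. Against Adv-Cre+ controls only, 1551 genes were called in wt mice, 674 on the injured side, 1 on the naive side and 132 for the difference. Il34 in wt mice (0.579, 0.0663), Il34 on the injured side (-0.486, 0.15) and the Ccl7 difference (-1.213, 0.134) missed the threshold, and on the naive side Csf1 was 0.144 and Ccl2 0.114. These subsets hold fewer mice.

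The split by the share of noncoding genes was chosen after seeing the data. In the 6 mice with a low share, 384 genes were called for cKO injury, 1446 on the injured side and 3 for the difference. Il34 was -0.032 in cKO mice and -0.579 (0.054) on the injured side, Ccl2 was -0.263 and Cx3cl1 -0.25 on the injured side, and on the naive side they were 0.045 and -0.241. The differences were -2.442 (0.0842) for Csf1, -1.668 (0.0842) for Ccl7, -0.308 for Ccl2 and -0.009 for Cx3cl1. In the 11 mice with a high share, 133 genes were called for cKO injury, 3121 for wt injury, 972 on the injured side and 48 for the difference. Ccl2 was 0.079 in cKO mice, Il34 was -0.518 (0.0918) and Ccl7 -0.5 (0.258) on the injured side, and the Ccl7 difference was -0.813 (0.556). Without the 2 farthest mice, correlations with macrophage markers turned to -0.196 for Csf1 in cKO mice, and to -0.363 for Csf1, -0.481 for Il34 and -0.495 for Ccl2 in wt mice. With the mean of the markers in place of their sum, Ccl2 in cKO mice gave -0.009. Apart from the smaller number of mice in the subsets, the cause of these changes was not tested. Low counts limit the precision of Ccl7 and Ccl8.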
